A study of Caenorhabditis elegans with 6 samples.

Results

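The 8 genes described here make, use or recycle S-adenosylmethionine (SAM) in Caenorhabditis elegans: sams-1, sams-3, sams-4, sams-5, metr-1, ahcy-1, pmt-1 and pmt-2. They were taken by gene symbol from tables of 18811 genes, all 8 were found, and all 8 were among the 12144 genes that passed the filter on low counts. RNA of whole worms kept at 20 °C was sequenced after transfer at larval stage 4 to 1 of 2 bacterial diets, with 3 libraries on Escherichia coli BW25113, a common laboratory strain, and 3 on a mutant strain labelled purE. The bacterial purE gene encodes an enzyme of purine synthesis. The labels give no worm strain, no adult age, no nature of the bacterial mutation and no pooling of animals, and do not say whether replicates were separate cultures, so p-values measure only the spread between these libraries. The series concerns how bacterial genes affect the life span of the host.

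SAM is the donor of methyl groups for lipids, RNA, proteins and small molecules. SAM synthetases, encoded by the sams genes, make it from methionine and ATP. Each methyl transfer leaves S-adenosylhomocysteine, which ahcy-1 (S-adenosylhomocysteine hydrolase) splits to homocysteine and adenosine, and metr-1 (vitamin B12-dependent methionine synthase) turns homocysteine back to methionine with a methyl group from folate. In the worm a large use of SAM is the methylation of phosphoethanolamine to phosphocholine, in which pmt-1 carries out the first step and pmt-2 the later ones. Loss of sams-1 in the worm is known to lower phosphatidylcholine, to activate the lipid regulator SBP-1 and to lengthen life.

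No gene of the 8 was called in the comparison of diets with edgeR's quasi-likelihood test at a Benjamini-Hochberg adjusted p under 0.05, and the background was also 0% (0 of 12144 genes). The synthetase gene sams-5, at a low level on BW25113, stood 4.84-fold higher on purE. The phosphoethanolamine methyltransferase gene pmt-1 stood 1.55-fold higher and the main synthetase gene sams-1 1.47-fold higher. Fold changes of the other 5 genes lay between 0.788 for metr-1 and 1.04 for ahcy-1. At an unadjusted p under 0.05, 2 of the 8, sams-5 and pmt-1, were higher and 0 were lower, beside 12.7% of all genes tested that were higher. The same 2 genes had every purE library above every BW25113 library, beside 13.1% of genes tested. DESeq2 called 1 of the 8, sams-5, as higher, beside 6.26% of genes.

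The purE libraries were unlike each other. On the first principal component of log2 CPM, which held 69.3% of the variance, purE replicate 2 stood at 120 and purE replicate 3 at 50.8, whereas purE replicate 1 stood at -26 near the BW25113 libraries, at -39.7 to -59.8. Total estimated counts were alike, from 21880627 to 22607939 per library. A count of 3, the most that a count of 0 allows, came to between 0.133 and 0.137 CPM before TMM scaling and covers counting error only. TMM factors of 0.844 to 1.20 widen that range on the scale of the other CPM values. Markers of intestine, epidermis, muscle, neurons, germline and oocytes were all detected, as whole worms require. In whole-worm RNA, fewer cells of a type and less RNA per cell cannot be told apart.

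**Figure D1:**
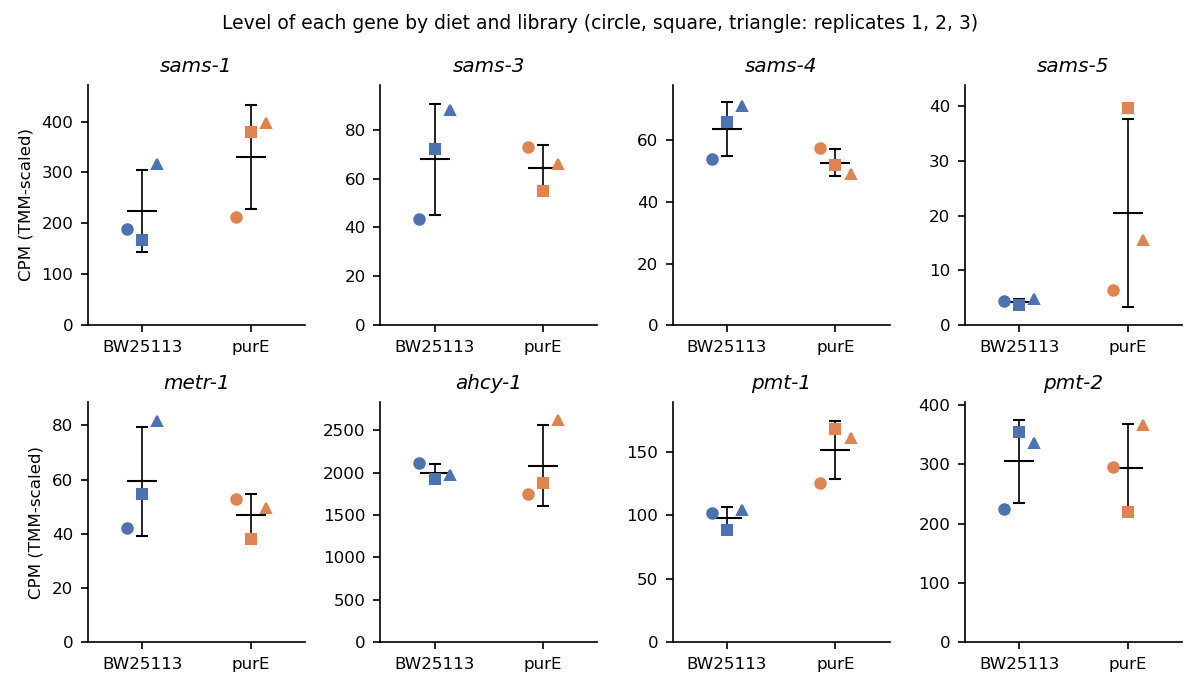
CPM after TMM scaling (linear axes from 0) of the 8 genes in the 3 BW25113 libraries (blue) and the 3 purE libraries (orange), with the mean and SD of each diet in black. Only sams-5 and pmt-1 have every purE library above every BW25113 library, and sams-5 reaches 39.7 CPM in purE replicate 2.

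Levels of different genes were compared as FPKM, the deposited values scaled to gene length and library size. The 8 transcripts spanned more than 2 orders of magnitude on BW25113, with ahcy-1 at 1321 ± 138 FPKM and sams-5 at 3.35 ± 0.770 FPKM (SD, n = 3). Between them, in descending order, stood pmt-2 at 210 ± 56.3, sams-1 at 122 ± 57.3, pmt-1 at 62.4 ± 10.8, sams-3 at 49.8 ± 20.6, sams-4 at 40.8 ± 9.0 and metr-1 at 16.3 ± 7.18 FPKM (SD, n = 3). Ranges of neighbours overlapped on BW25113 for pmt-2 and sams-1, for pmt-1 and sams-3, and for sams-3 and sams-4, and did not overlap for the other 4 neighbouring pairs. In every library ahcy-1 lay above at least 98.6% of genes with a value over 0. On purE the order was the same except at the bottom, where sams-5 averaged 13.8 ± 10.5 FPKM and metr-1 11.8 ± 4.06 FPKM (SD, n = 3), with overlapping ranges.

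The synthetases come first in the pathway. The gene sams-1 (chromosome X, 11965962 to 11969893, forward strand, WBcel235, 3 coding transcripts of 4 to 5 exons) is the family member best studied in lipid metabolism and life span. Its libraries stood at 190, 166 and 316 CPM on BW25113 and at 213, 380 and 397 CPM on purE. BW25113 replicate 3 lay above purE replicate 1, so the diets overlapped. The log2 fold change was 0.56 ± 0.35 (SE), with an adjusted p of 0.454 in edgeR. It was 0.25 when BW25113 replicate 2 was left out and 0.79 when BW25113 replicate 3 was, and edgeR called it in neither case.

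The genes sams-3 (chromosome IV, 5848657 to 5850843, forward strand) and sams-4 (chromosome IV, 5844061 to 5846369, reverse strand) are close copies that point away from each other with 2287 bases between them, and each has a single coding transcript of 6 exons. The gene sams-3 stood at 43.5, 72 and 88.2 CPM on BW25113 and at 73.0, 54.8 and 65.8 CPM on purE. All 3 purE values lay inside the BW25113 range. Its log2 fold change was -0.07 ± 0.30 (SE), with an adjusted p of 0.898 in edgeR. The gene sams-4 stood at 53.8, 66.1 and 71.1 CPM on BW25113 and at 57.4, 52.1 and 48.9 CPM on purE. Only purE replicate 1 lay above the lowest BW25113 library. Its log2 fold change was -0.27 ± 0.22 (SE), with an adjusted p of 0.547 in edgeR.

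All 6 estimated counts of each of the 4 sams genes were fractional, whereas all 6 were whole for metr-1, ahcy-1, pmt-1 and pmt-2. Among genes with any read, 12.5% had a fractional value. Values count as whole when within 0.001 of a whole number. How reads were divided among the sams genes cannot be checked, so levels of single synthetase genes, sams-3 and sams-4 above all, are uncertain. With the counts of sams-3 and sams-4 added together, the log2 fold change was -0.17 ± 0.26 (SE), with an adjusted p of 0.737 in edgeR. At its end sams-3 also overlaps C06E7.4, a gene on the opposite strand, and the strand setting of the counts is not given in the sources used here. C06E7.4 stood at 1.58 to 8.18 CPM over the libraries.

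The gene sams-5 (chromosome IV, 6277433 to 6279522, reverse strand, 2 coding transcripts of 6 to 7 exons) had the widest range of the 8. It stood at 4.34, 3.6 and 4.77 CPM on BW25113 and at 6.43, 39.7 and 15.6 CPM on purE. The BW25113 libraries lay close together, within 1.33-fold, whereas the purE libraries differed 6.17-fold among themselves, and the lowest of them, purE replicate 1, was the nearest to BW25113 replicate 3. The log2 fold change was 2.28 ± 0.60 (SE), and its adjusted p was 0.129 by edgeR but 0.00436 by DESeq2. DESeq2 lost the call when BW25113 replicate 1 was left out (adjusted p = 0.0641), when BW25113 replicate 2 was (0.104) and when purE replicate 2 was (0.115). In edgeR, leaving out purE replicate 2 gave 1.37, uncalled at an adjusted p of 0.206. Leaving out purE replicate 1 gave 2.58, called by edgeR at an adjusted p of 0.00543 beside 11% of all genes tested called higher in that fit.

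Markers of other tissues were set beside sams-5. Of 10 sperm markers 7 were found, none at 0 throughout. Their sum stood at 50.5 to 87.9 CPM on BW25113 and at 112, 1051 and 513 CPM in purE replicates 1, 2 and 3. That is the same order of purE libraries as for sams-5. Of the 7 sperm markers, 6 had all purE libraries above all BW25113 libraries, beside 13.1% of genes tested. The 10 larval cuticle and moulting markers summed to 345 to 1632 CPM on BW25113 and to 160, 6733 and 1716 CPM on purE. The order of the purE libraries was again that of sams-5. Over all 6 the patterns differed, since purE replicate 1 was lowest for these markers but above every BW25113 library for sams-5. The 7 intestine markers found summed to 707 to 752 CPM on BW25113 and to 796, 1858 and 1504 CPM on purE, in that order of purE libraries too. Of those 7, 1 had all purE libraries above all BW25113 libraries, beside 13.1% of genes tested, and act-5, at up to 1477 CPM, was the most abundant. Body wall muscle markers, at 5622, 9370 and 7918 CPM on purE, and neuron markers, at 207, 314 and 262 CPM, shared the order. So did the first principal component. Adult epidermis, germline, oocyte and early embryo markers had other orders. The order of sams-5 was thus not particular to sperm markers. The part of any of these tissues in the sams-5 difference was not tested.

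**Figure D2:**
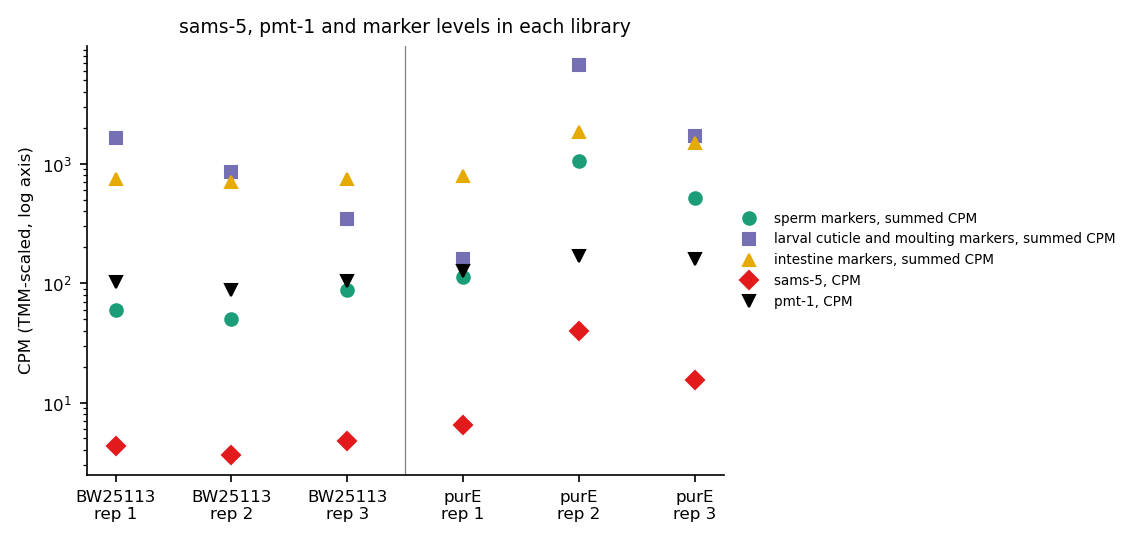
CPM after TMM scaling (log axis) of sams-5 and pmt-1 and the summed CPM of sperm, larval cuticle and intestine markers in each of the 6 libraries, with BW25113 left and purE right of the line. Each marker sum, sams-5 and pmt-1 are highest in purE replicate 2 and next highest in purE replicate 3. Sperm markers and sams-5 reach 1051 and 39.7 CPM in purE replicate 2.

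Among the 4 synthetase transcripts, sams-1 made up the largest share of summed FPKM in every library, from 47.8% in BW25113 replicate 2 to 70.0% in purE replicate 3. The share of sams-5 was 2.00%, 1.52% and 1.32% on BW25113 and 2.42%, 10.1% and 4.03% on purE, without overlap. The share of sams-4 was 20.2%, 22.7% and 16.1% on BW25113 and 17.6%, 10.8% and 10.3% on purE, and the diets overlapped. Summed sams FPKM was 163, 173 and 314 on BW25113 and 239, 254 and 245 on purE. In deposited FPKM, which were not TMM-scaled here, the BW25113 range thus enclosed all purE values, and the purE libraries lay closer together. This depends on the scale. For sams-1, the largest part, purE replicates 2 and 3 lay below BW25113 replicate 3 in FPKM, at 168 and 171 against 188. In CPM after TMM scaling they lay above it, at 380 and 397 against 316. Within a library, sams-1 stood 29.8- to 45.2-fold above sams-5 on BW25113 and 22.5-, 6.51- and 17.4-fold above it in purE replicates 1, 2 and 3.

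**Figure D3:**
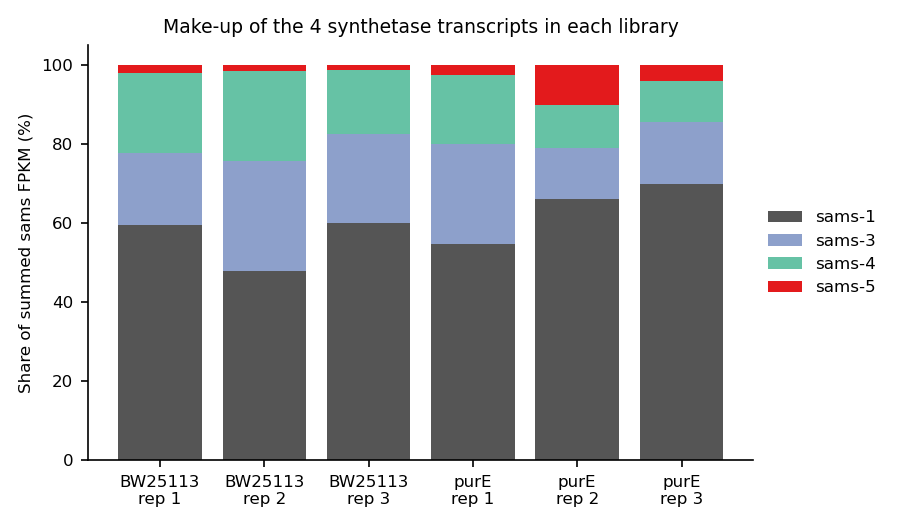
Share of each sams gene (percent, stacked to 100) in the summed FPKM of the 4 synthetase genes, 1 bar per library. The share of sams-5 is 1.32% to 2.00% in the BW25113 bars and reaches 10.1% in purE replicate 2.

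The methionine synthase gene metr-1 (chromosome II, 10926561 to 10931078, forward strand, 9 exons) stood at 42.1, 54.7 and 81.5 CPM on BW25113 and at 52.9, 38 and 49.6 CPM on purE. The lowest value was in purE replicate 2 and the highest in BW25113 replicate 3, and the diets overlapped. Its log2 fold change was -0.34 ± 0.30 (SE), at an edgeR adjusted p of 0.561. It reached -0.58 when purE replicate 1 was left out and -0.13 when BW25113 replicate 3 was. The hydrolase gene ahcy-1 (chromosome I, 6836469 to 6838140, forward strand, 3 exons) stood at 2111, 1918 and 1970 CPM on BW25113 and at 1750, 1874 and 2622 CPM on purE. In CPM both the lowest and the highest library were on purE. In FPKM the highest library of ahcy-1 was BW25113 replicate 3, at 1452. The log2 fold change of ahcy-1 was 0.06 ± 0.26 (SE), at an edgeR adjusted p of 0.908. Its sign depended on the scaling: it was -0.08 with scaling by library size alone.

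The methyltransferases of phosphocholine synthesis had unlike patterns over the libraries. The gene pmt-1 (chromosome II, 5278090 to 5282523, reverse strand, 7 coding transcripts of 4 to 5 exons) stood at 102, 88.2 and 103.9 CPM on BW25113 and at 126, 168 and 161 CPM on purE. No library overlapped, and within a diet the values stayed within 1.34-fold. Its log2 fold change was 0.63 ± 0.23 (SE), and its adjusted p was 0.219 by edgeR and 0.302 by DESeq2. Leaving out single libraries moved the edgeR value only between 0.44 and 0.63, though none of those fits called it. The gene pmt-2 (chromosome V, 4628580 to 4635263, forward strand, 6 exons) stood at 225, 354 and 336 CPM on BW25113 and at 295, 219 and 367 CPM on purE. The diets overlapped, with the lowest and the highest library both on purE in CPM. In FPKM the highest library of pmt-2 was BW25113 replicate 3, at 257. The log2 fold change of pmt-2 was -0.05 ± 0.30 (SE), with an adjusted p of 0.925 in edgeR. In FPKM, pmt-2 stood above pmt-1 in every library, 2.39-, 4.33- and 3.49-fold on BW25113 and 2.53-, 1.41- and 2.46-fold on purE, so these ratios overlapped as well.

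**Figure D4:**
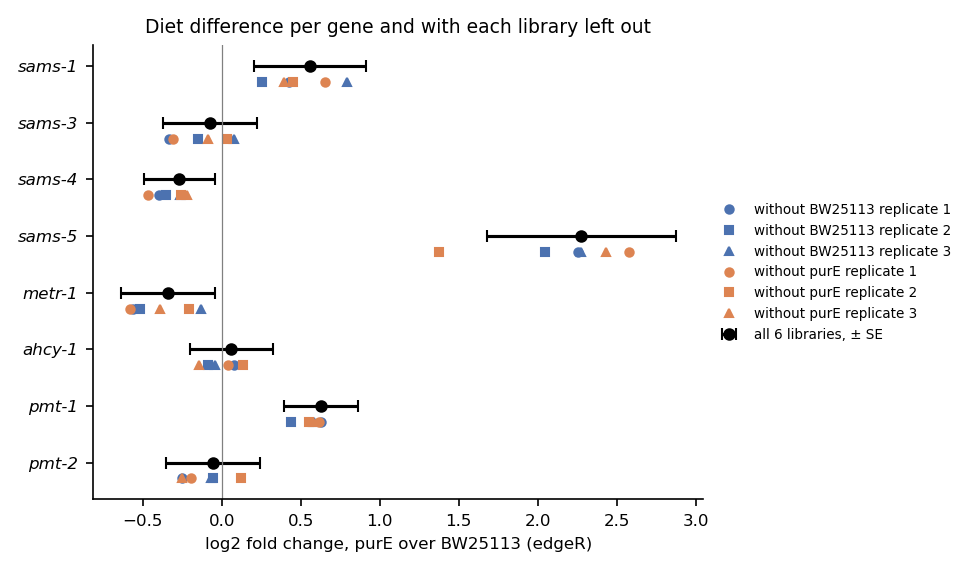
Log2 fold change of purE over BW25113 from edgeR for the 8 genes on all 6 libraries (black, bars are SE) and with each library left out (coloured symbols below). Values for sams-5 run from 1.37 to 2.58 and those for pmt-1 from 0.44 to 0.63, while those for sams-3, ahcy-1 and pmt-2 fall on both sides of 0.

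The genes differed in which libraries were high. Over the 6 libraries, the Pearson correlation of log2 CPM was 0.94 between sams-5 and pmt-1, 0.82 between sams-1 and pmt-1 and 0.79 between sams-1 and sams-5. A second, looser set was formed by metr-1 with sams-3 (0.86) and with sams-4 (0.81), and sams-3 with pmt-2 (0.78). Within it sams-4 with pmt-2 reached only 0.40. The gene ahcy-1 was in neither set, its highest value being 0.44, with sams-1. Between the sets the values were mostly below 0, down to -0.76 for sams-4 and pmt-1. These are descriptions of 6 libraries that share 2 diets, a depth scaling and the axis on which purE replicate 2 stands apart. The scaling matters for pmt-1. In CPM purE replicate 1 was its lowest purE library, as for sams-5, but in FPKM it was the highest, at 91.8 against 88.2 and 82.5. The genes with the highest correlation, among the 7406 tested genes averaging 5 CPM or more, were looked up for the 3 members of widest range. For sams-5 they were ttr-34 (0.999), asns-1 (0.997) and nas-30 (0.996). For sams-1 they were tag-10 (0.987), adt-2 (0.982) and ugt-12 (0.979), and for metr-1 thoc-1, B0336.7 and sqv-5 (0.996, 0.996 and 0.994). The gene asns-1, picked for this likeness, stood at 1.97, 1.89 and 2.29 CPM on BW25113 and at 3.31, 22.1 and 7.17 CPM on purE, so that purE replicates 2 and 3 carried it over the limit of 5 CPM. The same holds for nas-30, at 2.01, 1.66 and 2.94 CPM on BW25113 and at 3.31, 42.3 and 14.3 CPM on purE.

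Around the cycle lie genes that supply or drain it. Of 13 tested neighbours of the methionine cycle, 7 had a log2 fold change above 0, 0 were called in edgeR and the median was 0.12, beside 51.6% above 0 and a median of 0.03 over all genes tested. The 2 with the smallest p were cth-1 and cbs-2, of the transsulfuration route that draws homocysteine away, with log2 fold changes of 2.45 ± 0.32 and 2.89 ± 0.89 (SE). Both were called higher by DESeq2, the only calls it made in the 5 lists, beside 6.26% of all genes. All purE libraries of cth-1 lay above BW25113, at 101 to 140 against 15.1 to 30.6 CPM, whereas cbs-2 stood at 0.956 CPM in purE replicate 1, inside the BW25113 range of 0.954 to 1.39 CPM, and at 18.6 and 5.88 CPM in the others. Without purE replicate 2 the log2 fold change of cbs-2 was 1.58 in edgeR. The partner of metr-1, the reductase gene mtrr-1, and the gene mthf-1, which makes its folate methyl donor, had -0.19 ± 0.34 and -0.24 ± 0.24 (SE), both chosen after their values were seen.

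Of 13 tested genes listed as using SAM on small molecules or making polyamines, 11 had a log2 fold change above 0, with a median of 0.49 and 0 called in edgeR. The list includes pcm-1, which encodes a methyltransferase of protein, at -0.11 ± 0.32 (SE). The 2 with the smallest p were the methyltransferase genes comt-2, at 0.305 to 0.403 CPM on BW25113 and 0.909 to 1.53 CPM on purE, and anmt-2, at 9.85 to 11.9 and 15.9 to 24.2 CPM. Their log2 fold changes were 1.81 ± 0.44 and 0.79 ± 0.27 (SE), each without overlap of the diets. For 8 of the 13, or 61.5%, purE replicate 2 was the highest library, beside 36.0% of all genes tested, and the median was 0.11 without purE replicate 2 and 0.05 without BW25113 replicate 3.

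Among genes listed as methylating RNA and protein, 20 of 23 tested had a log2 fold change below 0, with a median of -0.36 and 0 called in edgeR. The list includes damt-1, named as a methyltransferase of DNA, at -0.68 ± 0.50 (SE). The median was -0.14 without purE replicate 2 and -0.82 without purE replicate 1. The 2 with the smallest p were the histone methyltransferase genes set-16, at 24.5 to 36.6 CPM on BW25113 and 15.5 to 19.6 CPM on purE, and set-25, at 3.04 to 3.81 and 1.16 to 2.35 CPM. Their log2 fold changes were -0.73 ± 0.27 and -0.90 ± 0.40 (SE). For 16 of the 23, or 69.6%, purE replicate 2 was the lowest library, beside 31.8% of all genes tested. The sum of the 8 oocyte markers, none at 0, was also lowest there, at 4028 CPM against 6626 and 7275 CPM in the other purE libraries and 7721 to 10650 CPM on BW25113. Of the 8, 1 had all purE libraries below all BW25113 libraries, beside 811 of 12144 genes tested, and perm-2, at up to 6765 CPM, was the most abundant. The 8 germline markers summed to 1213 to 1679 CPM on BW25113 and to 1242, 1135 and 1427 CPM on purE. The 9 early embryo markers found, none at 0 throughout, summed to 10.3 to 16.6 CPM on BW25113 and to 4.19, 2.11 and 4.22 CPM on purE. Of the 9, 6 had all purE libraries below all BW25113 libraries, beside 811 of 12144 genes tested. The part of these markers in the result was not tested. The gene mett-10, chosen after its values were seen, encodes an RNA methyltransferase known in the worm to mark a splice site of sams transcripts and so to limit their splicing. It stood at 9.09, 6.5 and 7.17 CPM on BW25113 and at 9.67, 3.17 and 4.6 CPM on purE, a log2 fold change of -0.38 ± 0.45 (SE) with overlapping diets. Values per gene do not separate spliced from unspliced sams transcripts.

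Of 11 tested genes of the other phospholipid routes, 8 had a log2 fold change above 0, with a median of 0.26 and 0 called in edgeR. The median was 0.09 without BW25113 replicate 1 and 0.13 without BW25113 replicate 3. The 2 with the smallest p were ckb-4 and cka-2, named as choline kinases, which make phosphocholine from choline without SAM. Their log2 fold changes were 1.02 ± 0.38 and 0.90 ± 0.40 (SE), and 4 genes of the list had all purE libraries above all BW25113 libraries, beside 13.1% of genes tested. Of 7 genes of SBP-1 and fatty acid synthesis, 5 lay above 0, with a median of 0.35 and 0 called in edgeR. That median was 0.12 without BW25113 replicate 1, and 0.21 without BW25113 replicate 2 or without purE replicate 3. For 4 of the 7, or 57.1%, purE replicate 2 was the highest library, beside 36.0% of all genes tested. The stearoyl-CoA desaturase gene fat-6 stood at 158, 114.1 and 167 CPM on BW25113 and at 215, 318 and 265 CPM on purE, a log2 fold change of 0.86 ± 0.27 (SE) without overlap. The carboxylase gene pod-2, which starts fatty acid synthesis, had 0.47 ± 0.28 (SE) with overlap.

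**Figure D5:**
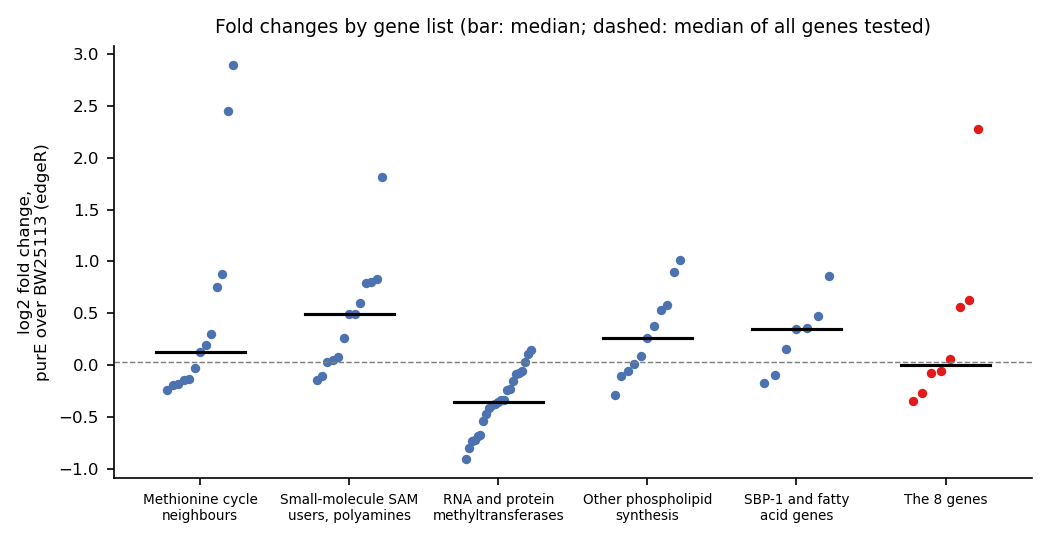
Log2 fold change of purE over BW25113 from edgeR for each tested gene of the 5 neighbouring lists (blue points) and the 8 genes themselves (red points), with the list median as a black bar and the median of all genes tested, 0.03, as a dashed line. The 23 genes listed as RNA and protein methyltransferases lie mostly below 0, and sams-5 is the highest of the red points.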

How the data were processed

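Whole-body RNA of 6 worm libraries, 3 per diet, was grouped by sample title. The authors deposited estimated counts per gene and FPKM values, per the file headers. The submitters' processing notes name the build WBcel235, with aligner, counter and strand handling not given in the sources used here. Gene positions are those of the Ensembl annotation on that build.

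Estimated counts were rounded to whole numbers, and 12144 of 18811 genes passed edgeR's default filter. Libraries were scaled with TMM factors (0.844 to 1.20), and CPM values use the scaled library sizes. The diets were compared with edgeR 4.0.16 in R 4.3.3 (quasi-likelihood, two-sided, Benjamini-Hochberg over all genes tested). SE is the absolute log2 fold change divided by the square root of F, and log2 CPM used a prior count of 2. The alternatives were DESeq2 1.42.0 on the same genes, limma 3.58.1 (voom, or log2(FPKM + 1)), other filters and scalings, a replicate block and each library left out. Procedures were tested on simulated data in which all libraries of a diet shared the same mean per gene. Single purE libraries did not stand apart there as they do here, and the outcome is not used for these data. From each list the 2 genes of smallest p were named, since none was called. Members and lists were chosen with earlier results of these data known.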

Additional observations from a re-analysis of the deposited data

How the results depend on the processing

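Over 16 alternatives and over DESeq2 with each library left out, sams-1, sams-5 and pmt-1 kept positive and sams-4 and metr-1 negative log2 fold changes, and sams-3 with sams-4 as 1 gene stayed negative in all 9 run, 3 of them added after seeing the data. Of the 8 genes only sams-5 was ever called, by DESeq2 (2.19) and by edgeR without purE replicate 1. With a library left out sams-5 ranged from 1.37 to 2.58 in edgeR and from 1.32 to 2.57 in DESeq2, where 3 of 6 fits lost the call. Near 0, signs turned. For ahcy-1 the value was -0.0062 with size factors of DESeq2 and in DESeq2 itself, -0.0752 with library size alone, -0.0286 with the 100 most abundant genes left out of the scaling and -0.084 on log2(FPKM + 1). With a library left out it ranged from -0.1441 to 0.1335 in edgeR and from -0.2014 to 0.0855 in DESeq2, sams-3 from -0.334 to 0.0777 and from -0.3895 to 0.1053, and pmt-2 from -0.2539 to 0.1218 and from -0.3058 to 0.0764. The causes were not tested. Over all genes edgeR called 0, with 1541 higher and 463 lower by unadjusted p, and DESeq2 called 760 higher and 186 lower. With a library left out, edgeR counts ran from 0 to 1406 higher and from 0 to 446 lower, with calls only when purE replicate 1 was left out. The median of all genes shifted by -0.10 with library size alone and by -0.14 on FPKM.

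Same-numbered libraries deviated from their diet means with correlations of -0.17 to 0.136, and 2 of 6 libraries correlated best with their own number, so the numbers were not taken as pairs. With the replicate block edgeR called 0 genes higher and 2 lower, none of the 8, and sams-5 had a log2 fold change of 1.90. Medians of the neighbouring lists moved with single libraries. That of the methionine cycle neighbours was -0.14, -0.04 and -0.11 with BW25113 replicate 2, BW25113 replicate 3 and purE replicate 1 left out and -0.07 on log2(FPKM + 1), where that of the other phospholipid routes was 0.05. That of the RNA and protein methyltransferases lay between -0.82 and -0.14 with a library left out.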
